A study of Mus musculus with 6 samples.

Results

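The secretory pathway of the fetal growth plate was described through 34 genes that fold, check and export new proteins, among them the matrix collagens. They were chosen by name for these roles, with earlier results of these data known. All 34 were found among the 46078 genes counted, and all of them passed the low-count filter, which left 16813 genes to test. Growth plate cartilage of the distal femur and proximal tibia was taken at E18.5, late in gestation, from 3 control and 3 mutant samples. Controls had the genotype Idh1 LSL/+, a knock-in Idh1 allele kept silent by a floxed stop cassette. Mutants were Col2a1-Cre; Idh1 LSL/+, so the Cre recombinase driven by the Col2a1 promoter, which is active in chondrocytes, could release the mutant allele. Both groups carried the Idh1 allele and the mutants alone carried the Cre. The effects of mutant Idh1 and of Cre cannot be told apart in this comparison. The comparison asks which transcripts differ in a growth plate whose Col2a1-expressing cells can make mutant IDH1, and cells outside that lineage are not expected to carry the recombined allele.

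New secretory and membrane proteins enter the endoplasmic reticulum (ER), where chaperones hold them unfolded and isomerases join their disulfide bonds. Proteins that fail to fold are sent back to the cytosol for degradation, and folded proteins leave in COPII vesicles. When unfolded protein builds up, the sensors encoded by Ern1 (IRE1), Atf6 and Eif2ak3 (PERK) start the unfolded protein response, which raises the transcription of chaperone genes. Growth plate chondrocytes secrete large amounts of collagen, and procollagen needs its own chaperones, prolyl isomerases and an enlarged export carrier.

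The transcription factors ATF6 and XBP1 are known to act through a paired promoter element, whose parts are CCAAT and CCACG with 9 bases between them. A shorter form has ATTGG and CCACG with 1 base between. These letters were searched on both strands of RefSeq promoter windows on GRCm38.p6, each running from 250 bases before to 50 bases after the start of the gene. A window was found for 29 of the 34 members and not for Atf6, Creb3l1, Fkbp10, Hyou1 and Manf. The longer form was in 8 of the 29 (27.6%) and in 37 of all 27025 genes with a window (0.137%). The shorter form was in 2 of the 29 (6.9%), Dnajb11 and Herpud1, and in 12 of all genes (0.0444%). Since genes of the unfolded protein response were listed for being known targets of these factors, the share among the members is a description of the list. A match is a string of letters, not a binding site that was measured here. The following matches are shown because they lie at the starts of the leading chaperone and lectin genes described below and of 2 genes of ER-associated degradation. These parts are in capitals, and each sequence is read 5′ to 3′ on the strand of its gene. Where a match is on the opposite strand, they appear as CGTGG and ATTGG.
Hspa5, chr2:34772020-34772048, plus strand: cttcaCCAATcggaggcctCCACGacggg
Hsp90b1, chr10:86705633-86705661, minus strand: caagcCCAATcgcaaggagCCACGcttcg
Hsp90b1, chr10:86705528-86705556, minus strand: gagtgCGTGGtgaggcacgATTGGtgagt
Calr, chr8:84847070-84847098, minus strand: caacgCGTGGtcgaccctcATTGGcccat
Canx, chr11:50325795-50325823, minus strand: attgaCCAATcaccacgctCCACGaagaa
Syvn1, chr19:6046527-6046555, plus strand: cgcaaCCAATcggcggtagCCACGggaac
Dnajb11, chr16:22857847-22857867, plus strand: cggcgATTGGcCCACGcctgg
Herpud1, chr8:94386372-94386392, plus strand: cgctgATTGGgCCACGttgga
The other 3 genes with the longer form were Dnajc3, Creld2 and Pdia6. The centre of the match lay 56 bases before the start in Hspa5, and both matches of Hsp90b1 lay farther away, at 203 and 98 bases. The match of Dnajb11 was 12 bases past the start. The motif TGACGTGG, a form known for ATF6, was in Sec23a and Sec24d (6.9% of the 29 members) and in 193 of all genes with a window (0.714%).

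**Figure D1:**
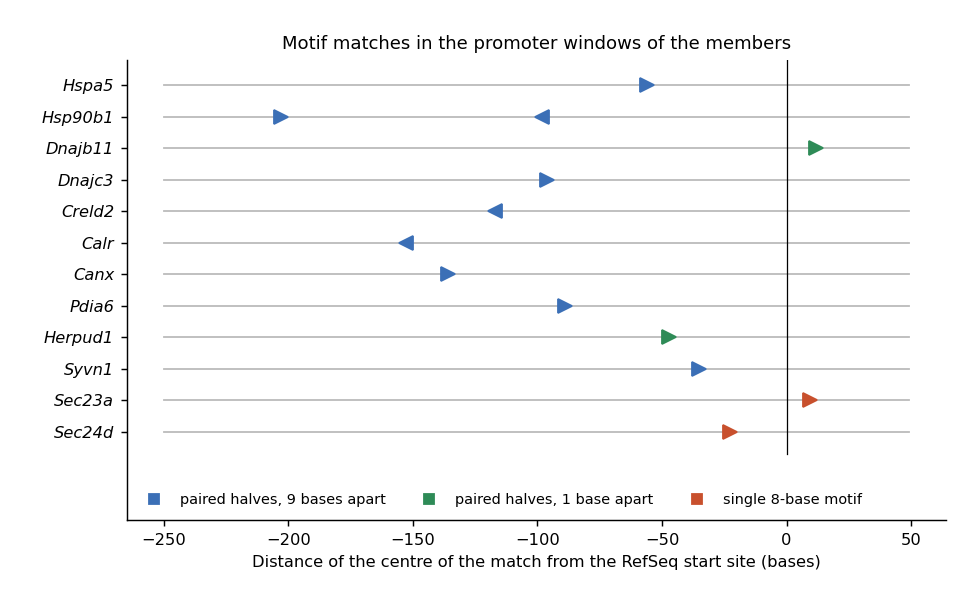
Motif matches in the promoter windows of the 12 members that held at least 1. The horizontal axis gives the distance in bases of the centre of each match from the RefSeq start site, grey lines are the windows, and each arrowhead points along the strand on which the match was read. The matches lay between 203 bases before and 12 bases after the start, and Hsp90b1 held 2.

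The libraries held 23445687 to 30415773 counts, and the lowest count of any member in any library was 250, so that 30 of the 34 had at least 1000 counts in every library. Levels are given in CPM, the counts scaled to the size of the library, with TMM factors that correct for differences in library composition. Idh1 itself was at 37.2, 39.1 and 65.3 CPM in controls 1, 2 and 3 and at 47.5, 47.7 and 56.2 CPM in mutants 1, 2 and 3. These ranges overlapped, and gene counts do not show whether the stop cassette was removed. The tissue was not cartilage alone. The 10 cartilage markers summed to 5160 to 9230 CPM in controls and 7118 to 9537 CPM in mutants, while the 8 bone markers summed to 34081 to 48150 CPM and 39486 to 41608 CPM, nearly all of it Col1a1, and the 8 muscle markers to 15772 to 22975 CPM and 14938 to 21777 CPM. In such bulk samples, fewer cells of a type and less RNA per cell cannot be told apart. Xist was counted 26356 times in mutant 3 and at most 13 times in any other library. No label says how the 3 samples of a group relate to litters, so the tests measure the spread between these samples.

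Levels of the members, compared per kilobase of counted exon, spanned a wide range. Serpinh1, which encodes the collagen chaperone HSP47, had the highest mean of the 34 at 1045 CPM per kilobase, rank 27 of the 16813 genes tested. The calcium-binding lectin chaperone gene Calr followed at 315 CPM per kilobase. Ppib, for cyclophilin B, was next at 282 CPM per kilobase, although 54.2% of its exon bases also lie in exons of Snx22 on the other strand and the counting ignored strand. In all, 11 of the 34 share exon bases with another gene, and Ppib and Hsp90b1 are the 2 that share over 10%. Pdia3, Hsp90b1 and Hspa5 stood at 223, 203 and 191 CPM per kilobase. The neighbours Calr and Ppib, and likewise Pdia3, Hsp90b1 and Hspa5, overlapped in their ranges over the libraries. At the other end were the stress sensors, with Eif2ak3 at 10.1, Atf6 at 5.71 and Ern1 at 3.40 CPM per kilobase. The ranges of these 3 sensors did not overlap.

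**Figure D2:**
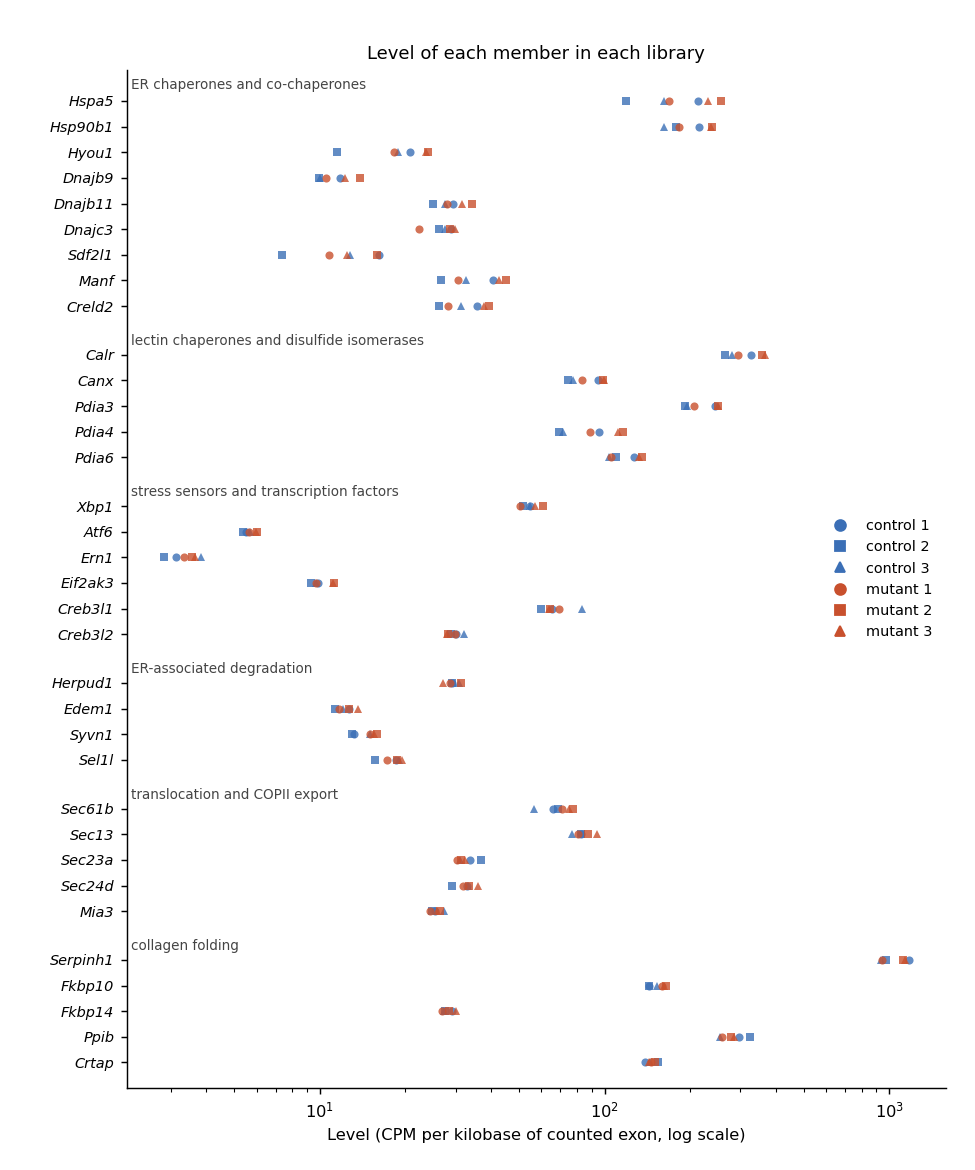
Level of each of the 34 members in each library, in CPM per kilobase of counted exon on a log axis, ordered by role. Blue symbols are controls 1 to 3 and red symbols mutants 1 to 3. Serpinh1 was the highest at a mean of 1045 CPM per kilobase and Ern1 the lowest at 3.40, and the symbols of both colours overlap in range in all members but Syvn1, Sec61b and Fkbp10.

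No member passed the test between genotypes. The edgeR quasi-likelihood test with Benjamini-Hochberg adjustment over all genes called 0 of the 34 at an adjusted p under 0.05, against 32 of 16813 genes (0.19%), and the smallest adjusted p among the members was 0.444. At an unadjusted p under 0.05 there were 2 members, Pdia4 and Sec61b, both higher in mutants, against 1452 of all genes (8.64%). In 3 members, Syvn1, Sec61b and Fkbp10, every mutant was above every control, which was the case for 1148 of all genes (6.83%). No member had every mutant below every control, against 1281 genes (7.62%). The fitted log2 difference, mutant minus control, was above 0 in 27 members and below 0 in 7, with a median of 0.11, while over all genes 8293 of 16813 (49.3%) were above 0 and the median was -0.0026. The differences were small, from -0.11 for Sec23a to 0.42 for Pdia4. In 30 of the 34 members, the highest control exceeded the lowest control by a larger factor than separated the means of the genotypes. This sets single libraries against means of 3, and the share over all genes was not counted. It is therefore not shown to be particular to the members.

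**Figure D3:**
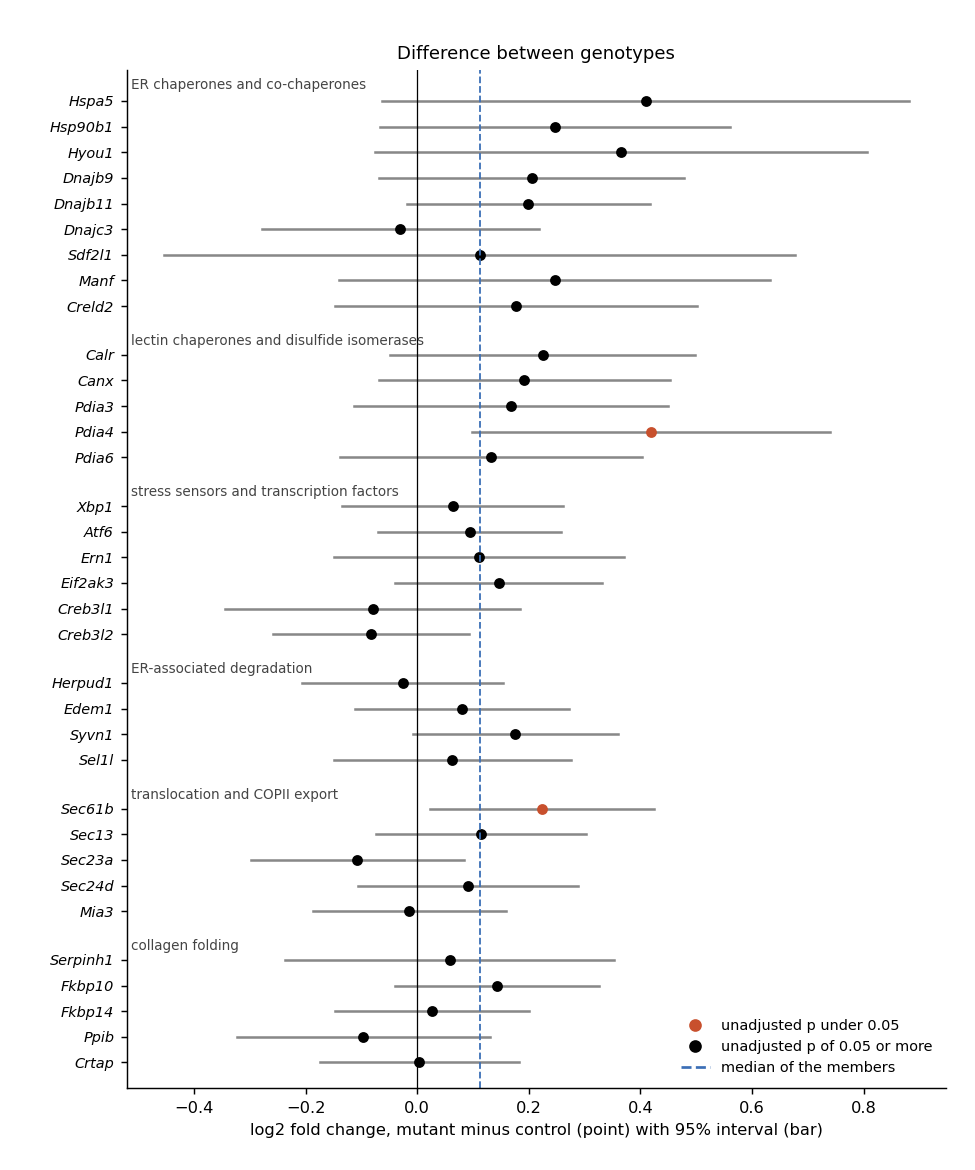
Fitted log2 difference between genotypes for each member, mutant minus control (points), with the 95% interval of the edgeR fit (bars). Red points are the 2 members at an unadjusted p under 0.05, Pdia4 and Sec61b, the dashed line is the median of the members at 0.11, and none of the 34 passed after adjustment.

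Among the chaperones of the ER lumen, the libraries of 1 genotype lay farther apart than the means of the genotypes. Hspa5 encodes BiP, the HSP70 chaperone of the ER and the standard marker of ER stress. It lies on chromosome 2 (GRCm38, 34771970 to 34777547, plus strand). It was at 900, 502 and 685 CPM in controls 1, 2 and 3 and at 713, 1083 and 974 CPM in mutants 1, 2 and 3. Mutants 2 and 3 were the highest and control 2 the lowest, but control 1 was above mutant 1, so the groups overlapped. The means were 696 ± 199 and 923 ± 190 CPM (SD, n = 3 each), a ratio of 1.33, whereas control 1 was 1.79 times control 2. The log2 difference was 0.41 (95% interval -0.062 to 0.88, edgeR adjusted p = 0.652). At this spread between samples the fit left room for a higher level of Hspa5 in mutants by up to 0.88 on the log2 scale.

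Hsp90b1, the HSP90 of the ER (GRP94), was at 868, 718 and 655 CPM in controls and at 739, 964 and 955 CPM in mutants. Again control 1 lay with mutants 2 and 3, and mutant 1 lay within the control range. The log2 difference was 0.25 (edgeR adjusted p = 0.693). Exons of other genes share 15.7% of the exon bases of Hsp90b1, so a part of its reads is uncertain. Hyou1, a large HSP70-related chaperone, was at 150, 82.9 and 136 CPM in controls and 131, 174 and 171 CPM in mutants. Control 2 stood far below the rest, and control 1 was 1.82 times control 2. The difference of Hyou1 was 0.37 on the log2 scale (SE 0.20, edgeR adjusted p = 0.672).

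The cofactors of BiP were spread over the libraries in a similar way. Manf, a secreted ER stress protein, was at 143, 94.1 and 115 CPM in controls and 108, 159 and 151 CPM in mutants. Sdf2l1, a stress-induced part of the BiP complex, was at 18.0, 8.15 and 14.2 CPM in controls and 12.0, 17.6 and 13.9 CPM in mutants. The mutant range of Sdf2l1 lay inside the control range, and control 1 was 2.20 times control 2. The log2 differences of Creld2, Dnajb9, Dnajb11, Manf and Sdf2l1 lay between 0.11 and 0.25. Dnajc3, the co-chaperone p58IPK, was the only one of the 9 chaperones with a difference below 0, at 150, 137 and 143 CPM in controls and 116, 149 and 155 CPM in mutants. Mutant 1 alone was low in Dnajc3. Over the 9 genes the median log2 difference was 0.21, with 8 above 0 and none at an unadjusted p under 0.05.

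All 5 lectin chaperone and disulfide isomerase genes had a difference above 0, with a median of 0.19. Pdia4 (ERp72), an isomerase that joins and exchanges disulfide bonds, showed the largest difference of the 34. Its gene lies on chromosome 6 (47796142 to 47813512, minus strand). It was at 238, 171 and 178 CPM in controls and 220, 287 and 277 CPM in mutants. Mutants 2 and 3 were the highest libraries, but mutant 1 was below control 1. The means were 196 ± 36.6 and 262 ± 36.3 CPM (SD, n = 3 each), and the log2 difference of 0.42 had a 95% interval of 0.098 to 0.74 before adjustment (edgeR adjusted p = 0.444). Calr, which retains glycoproteins in the ER until they fold, was at 942, 760 and 809 CPM in controls and 850, 1030.4 and 1054 CPM in mutants. Its membrane-bound relative Canx was at 444, 350 and 365 CPM in controls and 392, 463 and 467 CPM in mutants. In both lectin genes control 1 again fell between mutant 1 and the other mutants. Pdia3, the isomerase that works with calreticulin and calnexin, and Pdia6 had differences of 0.17 and 0.13 on the log2 scale.

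**Figure D4:**
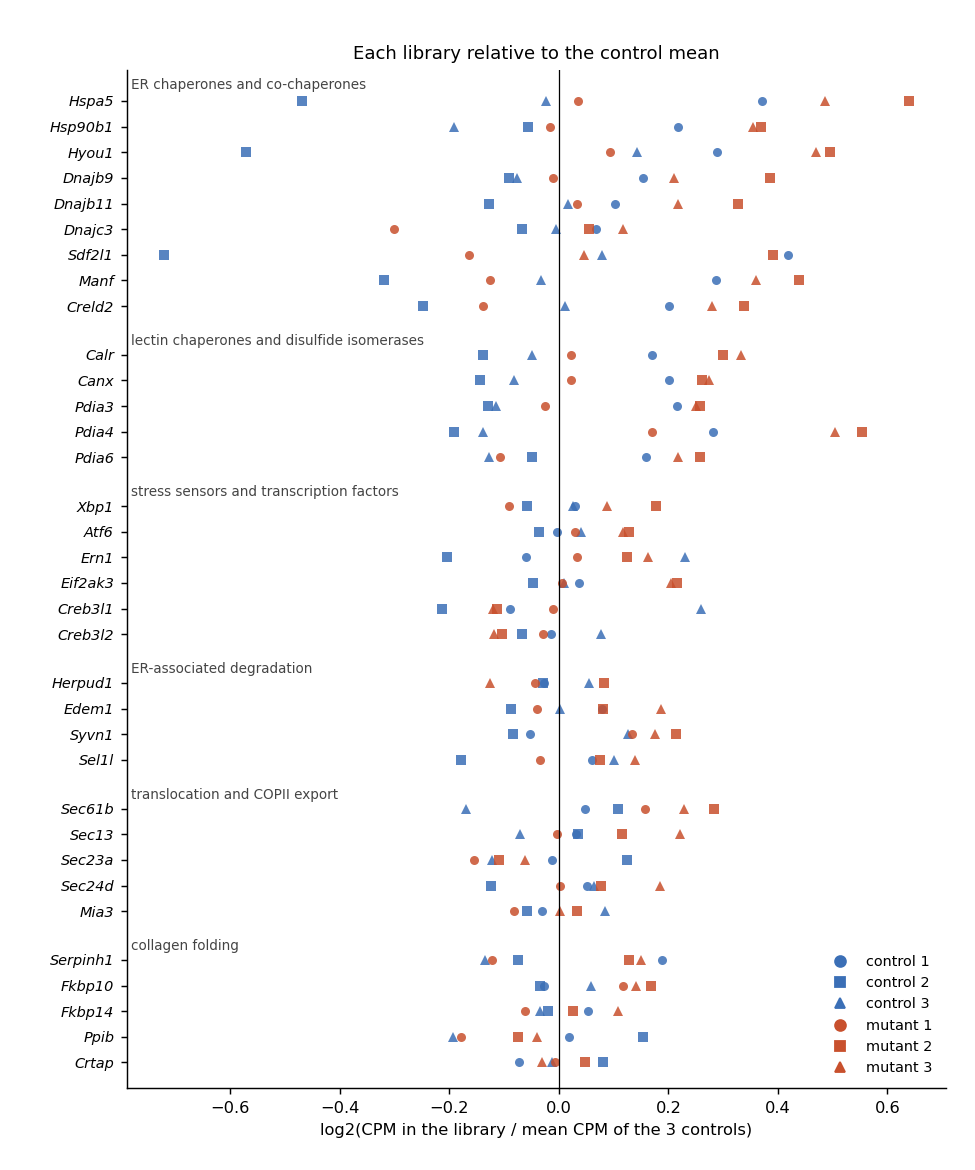
Level of each member in each library relative to the mean of the 3 controls, as log2 of the ratio of CPM values. Blue symbols are controls and red symbols mutants. In the chaperone and isomerase groups at the top, control 1 (blue circle), mutant 2 (red square) and mutant 3 (red triangle) were the 3 highest libraries in every gene but Sdf2l1, and Hspa5, Hyou1 and Sdf2l1 spread the most.

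This order of libraries was examined after the values were seen and is given as a description. Control 1, mutant 2 and mutant 3 were the 3 highest libraries in 18 of the 34 members (52.9%), against 1313 of the 16813 genes tested (7.81%). In the chaperones it was so in 8 of 9 genes and in the lectin and isomerase genes in 5 of 5. Dnajc3 followed it despite its difference below 0, and Sdf2l1, in which control 3 was above mutant 3, was the exception among these 14 genes. Among the other 20 members the order was seen in 5. Mutant 2 was the highest library in 17 members (50%; all genes 14.1%) and control 2 the lowest in 20 (58.8%; all genes 19.5%). Mutant 1 was the highest in none (all genes 14.8%), and control 1 was the highest in only 2 (5.88%; all genes 14.9%).

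Summed over the 9 chaperones, controls were at 2395, 1677 and 1898 CPM and mutants at 1967, 2736 and 2596 CPM. Their mean log2 deviation from the 6-library mean was 0.14, -0.38 and -0.096 in controls 1 to 3, against -0.15, 0.29 and 0.19 in mutants 1 to 3. For the 5 collagen folding genes it stayed between -0.074 and 0.055. The coefficient of variation of the members had a median of 9.79% in controls and 7.87% in mutants, against 11.4% and 9.34% over all genes. The summed erythroid markers were at 533, 1529 and 623 CPM in controls and at 278, 413 and 319 CPM in mutants, so control 2, the lowest library for the chaperones, was the highest for these blood cell genes. The 5 tendon markers summed to 2990 to 3285 CPM in controls and 2002 to 2337 CPM in mutants, without overlap. Of these markers 4 had a fitted difference below 0, and Tnmd passed the test (log2 difference -0.81, edgeR adjusted p = 0.0374). Thbs4 did not share the difference, at 0.017 on the log2 scale with overlapping groups. Of the 8 bone markers, 7 had a fitted difference above 0 (median 0.38 on the log2 scale) and none passed the test. The other was Runx2, at 45.5, 41.0 and 43.8 CPM in controls and 37.2, 39.9 and 24.4 CPM in mutants. Every mutant was below every control in Runx2 (log2 difference -0.36, edgeR adjusted p = 0.563). Spp1, which encodes the bone matrix protein osteopontin, was at 287, 116 and 47.2 CPM in controls and 164, 424 and 190.3 CPM in mutants. The osteoclast gene Acp5 was at 57.2, 18.3 and 13.2 CPM in controls and 19.6, 73.2 and 35.4 CPM in mutants. In both genes control 1, mutant 2 and mutant 3 were the highest libraries, as in most of the chaperones. No other gene of the bone list or of the osteoclast and macrophage list had this order. Outside these lists, Dpt of the loose connective tissue markers and Tek of the endothelial markers had it too, so it was not particular to bone and osteoclast genes. The mineralisation genes Dmp1 and Ibsp also varied widely. Dmp1 was at 82.8, 21.4 and 6.75 CPM in controls and 84.4, 198 and 90.6 CPM in mutants, without overlap between the genotypes, and Ibsp at 973, 332 and 120 CPM in controls and 1141, 1474 and 949.9 CPM in mutants. Control 1 was the highest control in each. Runx2, Spp1, Acp5, Dmp1, Ibsp, Dpt, Tek, Tnmd and Thbs4 were singled out after their values were seen. The part of the erythroid, tendon, bone, osteoclast, connective tissue and endothelial cells in the chaperone levels was not tested.

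**Figure D5:**
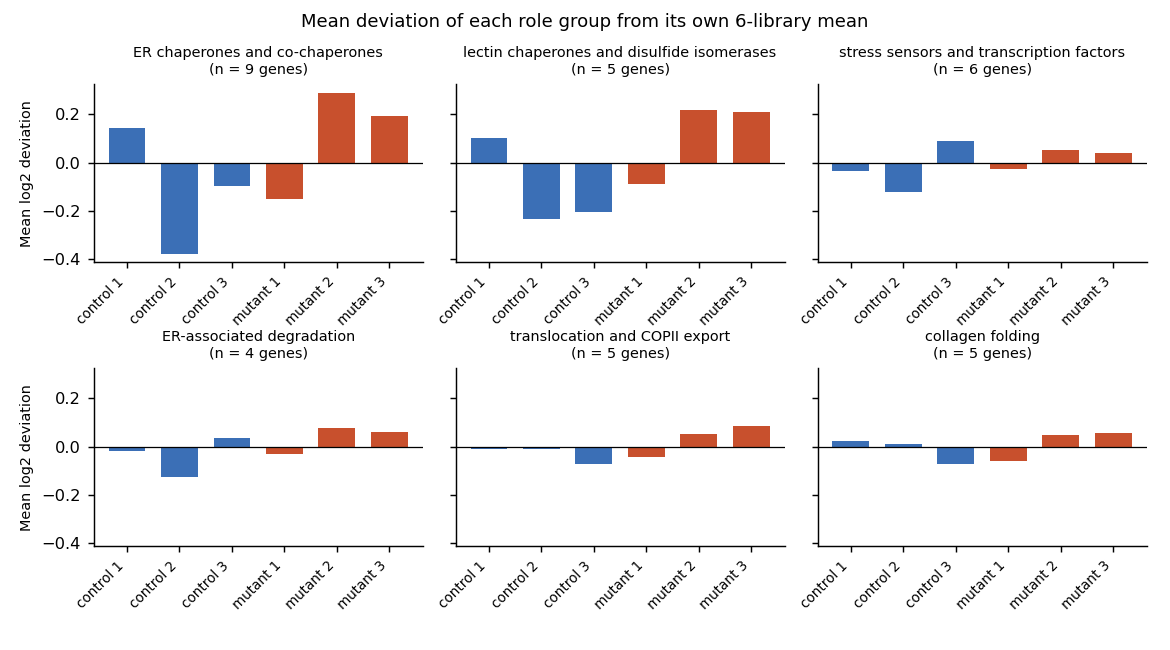
Mean log2 deviation of each role group from its own mean over the 6 libraries, with 1 bar per library (blue, controls; red, mutants). The chaperones ranged from -0.38 in control 2 to 0.29 in mutant 2, and the collagen folding genes from -0.074 in control 3 to 0.055 in mutant 3.

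The count of members at an unadjusted p under 0.05 depended on which library was left out. It was 10 without control 1, where 9.76% of all genes reached that level, and 11 without mutant 1, where 7.73% did. Hspa5, Hsp90b1, Hyou1, Dnajb11, Manf, Calr, Pdia4 and Sec61b were in both sets. Without control 3 it was 2 (all genes 8.11%), Ern1 and Syvn1, and neither Pdia4 nor Sec61b was among them. It was 1, Sec61b, without control 2 (all genes 8.39%), 1, Pdia4, without mutant 3 (7.34%) and 0 without mutant 2 (5.64%). No member passed the adjusted threshold in any of these fits, which share most of their samples. Without mutant 3, the library that stood apart in Xist, the median log2 difference of the members was 0.084. The log2 difference of Hspa5 was 0.64 without control 1 and 0.22 without control 2, and that of Hyou1 was 0.53 and 0.15.

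The 6 sensors and transcription factors had a median log2 difference of 0.079, with 4 above 0 and none at an unadjusted p under 0.05. Xbp1, whose mRNA is spliced by IRE1 to give the active factor, was at 178, 168 and 178 CPM in controls and 164, 197 and 185 CPM in mutants. Counts per gene do not separate its spliced from its unspliced form. Atf6, a sensor that is cleaved in the Golgi under stress, was at 50.8, 49.7 and 52.4 CPM in controls and 52.1, 55.7 and 55.3 CPM in mutants, with mutant 1 inside the control range. Eif2ak3, the kinase that slows translation, was at 59.5, 56.2 and 58.4 CPM in controls and 58.3, 67.4 and 66.9 CPM in mutants. Mutants 2 and 3 exceeded all controls in Eif2ak3 and mutant 1 did not. Ern1 was at 25.6, 23.2 and 31.3 CPM in controls and 27.4, 29.1 and 29.9 CPM in mutants. Its mutants lay inside the control range, and the log2 difference was 0.11 (95% interval -0.15 to 0.37).

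Creb3l1 (OASIS) and Creb3l2 (BBF2H7) encode ER-bound factors that raise secretory genes in bone and cartilage, and Creb3l2 is needed for collagen export by chondrocytes. Creb3l2 was at 219, 211 and 234 CPM in controls and 217, 206 and 204 CPM in mutants. The highest mutant was below the highest control but above control 2, so the groups overlapped. The log2 difference was -0.083 (95% interval -0.26 to 0.094, edgeR adjusted p = 0.843). Creb3l1 was at 170, 156 and 216 CPM in controls and 179, 167 and 166 CPM in mutants and its highest value was in control 3. Sec23a and Sec24d encode coat proteins of the COPII vesicle and Sec23a is a known target of BBF2H7. Sec23a was at 163, 179 and 151 CPM in controls and 147, 152 and 157 CPM in mutants. Its log2 difference of -0.11 was the lowest of the 34 (95% interval -0.30 to 0.083).

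In ER-associated degradation, Syvn1 encodes HRD1, the ubiquitin ligase through which misfolded proteins leave the ER, and Sel1l encodes its partner. Syvn1 (chromosome 19, 6046576 to 6053712, plus strand) was at 63.2, 61.8 and 71.5 CPM in controls and 71.9, 76.0 and 74.0 CPM in mutants. Every mutant was above every control, though mutant 1 exceeded control 3 by a narrow margin. The log2 difference was 0.18 (SE 0.082, edgeR adjusted p = 0.611). Herpud1, a membrane protein of the same complex and a sensitive target of the unfolded protein response, was at 67.8, 67.8 and 71.8 CPM in controls and 67.1, 73.2 and 63.4 CPM in mutants. The controls lay within the range of the mutants in Herpud1, and the groups also overlapped in Sel1l. Edem1, a lectin that marks glycoproteins for degradation, had a log2 difference of 0.080.

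Entry into the ER and export from it were represented by 5 genes. Sec61b encodes a subunit of the channel through which new proteins enter (chromosome 4, 47474658 to 47483242, plus strand). It was at 83.8, 87.4 and 72.1 CPM in controls and 90.4, 98.7 and 95.1 CPM in mutants. All mutants were above all controls, and the log2 difference was 0.22 (95% interval 0.023 to 0.42 before adjustment, edgeR adjusted p = 0.524). Mia3 encodes TANGO1, which loads procollagen into export carriers, and it was at 112, 110.1 and 121 CPM in controls and 108, 117 and 115 CPM in mutants. Its 95% interval ran from -0.19 to 0.16 on the log2 scale. Sec13 and Sec24d, COPII coat genes, had differences of 0.11 and 0.091. In none of these 5 genes were control 1, mutant 2 and mutant 3 the 3 highest libraries. Of the wider translocation genes described below, 8 of 20 had that order.

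The genes that fold collagen had a median log2 difference of 0.026. Serpinh1, whose product binds and stabilises the procollagen triple helix, was at 2842, 2369 and 2271 CPM in controls and 2293, 2724 and 2767 CPM in mutants. Control 1 was the highest library and mutant 1 was close to control 3, and the log2 difference was 0.058 (95% interval -0.24 to 0.35). Fkbp10, which encodes the collagen prolyl isomerase FKBP65 (chromosome 11, 100415697 to 100424824, plus strand), was at 421, 419 and 447 CPM in controls and 465, 482 and 473 CPM in mutants. The mutants lay above the controls without overlap, by 0.14 on the log2 scale (SE 0.081, edgeR adjusted p = 0.697). Fkbp14, another isomerase of this family, had a difference of 0.026.

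Crtap, Ppib and P3h1 encode the complex that hydroxylates a proline of the collagen chains. Crtap was at 246, 273 and 256 CPM in controls and 257, 267 and 253 CPM in mutants, with a log2 difference of 0.0038. Ppib was at 284, 311 and 245 CPM in controls and 247, 266 and 272 CPM in mutants, a difference of -0.096. P3h1, which is not among the 34, was at 257, 251 and 265 CPM in controls and 275, 294 and 285 CPM in mutants. The groups did not overlap for P3h1 alone of the 3 genes, at a log2 difference of 0.14 (edgeR adjusted p = 0.670).

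A wider list of 123 other genes of the same pathway held 121 that were tested. None passed at an adjusted p under 0.05 with edgeR, 7 were at an unadjusted p under 0.05 (all genes 8.64%) and all 7 were higher in mutants. The fitted difference was above 0 in 91 and below 0 in 30, with a median of 0.064. Every mutant was above every control in 17 genes (all genes 6.83%) and below in 1 (all genes 7.62%), the vesicle tethering gene Trappc3, which was chosen after its values were seen. By group, all 10 genes of N-glycosylation had a difference above 0 (median 0.12), as did 16 of 18 further folding genes (median 0.14) and 25 of 31 vesicle transport genes (median 0.083). For translocation and signal cleavage it was 16 of 20 (median 0.062) and for further collagen folding genes 7 of 11 (median 0.056). For degradation it was 11 of 19 (median 0.016) and for the stress response 8 of 15 (median 0.038). Control 1, mutant 2 and mutant 3 were the highest libraries in 7 of the 10 N-glycosylation genes and 8 of the 20 translocation genes. The same order was seen in 7 of the 31 vesicle transport genes and 3 of the 18 folding genes (all genes 7.81%). It held in 3 of the 19 degradation genes, 1 of the 15 stress response genes and 1 of the 11 collagen folding genes.

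The lowest p of the wider list belonged to Trib3, a pseudokinase gene that is induced through ATF4 and CHOP. It had 72, 39 and 46 counts in controls and 118, 152 and 151 counts in mutants, or 2.55, 1.27 and 1.66 CPM against 5.0, 6.17 and 5.19 CPM. All mutants were above all controls, including mutant 1. The log2 difference was 1.58 (SE 0.26, edgeR adjusted p = 0.060), and it did not pass the threshold. The adjusted p of Trib3 was 0.045 without control 1, from 0.118 to 0.246 with each of the other libraries left out, and 0.212 with the replicate number as a block. Chac1, another target of the ATF4 arm, was at 2.16, 1.11 and 0.433 CPM in controls and 2.58, 3.86 and 1.96 CPM in mutants, and its groups overlapped. Ddit3, which encodes the stress-induced factor CHOP, was at 12.3, 15.2 and 14.1 CPM in controls and 17.6, 16.8 and 15.6 CPM in mutants, without overlap (log2 difference 0.27, edgeR adjusted p = 0.543). Atf4 itself had a difference of -0.078, and Ppp1r15a, the phosphatase subunit (GADD34) that ends the PERK signal, one of -0.097. Chac1, Ddit3, Atf4 and Ppp1r15a were singled out after their values were seen.

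Of the further folding genes, Erp29, an ER protein of the disulfide isomerase family, had the lowest p. It was at 130, 128 and 123 CPM in controls and 143, 161 and 151 CPM in mutants, without overlap (log2 difference 0.26, edgeR adjusted p = 0.36). Tmed9, a cargo receptor of the early secretory pathway, was at 222, 208 and 190.1 CPM in controls and 231, 238 and 241 CPM in mutants. Its groups were also apart, and the log2 difference was 0.20 (edgeR adjusted p = 0.554).

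The members with a paired promoter match were compared with those without. The 10 with a match had a median log2 difference of 0.18, with 8 above 0, and the 19 without had a median of 0.080, with 15 above 0. Of the 10 with a match, 8 had control 1, mutant 2 and mutant 3 as their highest libraries, and so had 8 of the 19 without. All 8 with a match were chaperone, lectin or isomerase genes, a group in which 13 of 14 genes had this order. Syvn1 and Herpud1 had a match and lacked the order, while Dnajb9, Pdia3 and Pdia4 had the order and no match. The match and the role of a gene therefore cannot be told apart in this comparison. Over all genes with a window, 26 with a paired match were tested, none passed, and 11 of them (42.3%) had that order of libraries. In genes with a window and no match it was 932 of 11442 (8.15%). The 26 genes include the 10 members, so this is not a separate observation. In the 16 that are not members it was 3 (18.8%), with a median log2 difference of -0.024.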

How the data were processed

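RNA of 3 control and 3 mutant growth plates was sequenced in bulk, and groups were taken from the genotype labels. The labels give an age of E18.5, and a note on animal care gives 2 months. Per the file headers and processing notes, the authors trimmed reads (Trim Galore 0.6.4), mapped them to GRCm38 with STAR 2.6.1d and counted them on exons with featureCounts 1.6.4, ignoring strand and leaving out multi-mapping reads. The deposited values are whole-number counts per gene, with the exon length of each gene. Totals of 23445687 to 30415773 counts put 3 counts at 0.0986 to 0.128 CPM, which covers counting error only. Replicates differed by more than counting noise.

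Genotypes were compared in R 4.3.3 with edgeR 4.0.16, using filterByExpr (minimum count 10, minimum total 15), TMM factors and the quasi-likelihood test with genotype alone, over 16813 genes with Benjamini-Hochberg adjustment and a threshold of 0.05. The study's methods also used litter, which the labels do not give. The common dispersion was 0.0173 (biological coefficient of variation 0.131). Deviations used log2(CPM + 0.5). The procedure was tested on simulated data. Alternatives were upper-quartile factors, DESeq2 1.42.0, limma-voom (limma 3.58.1), no low-count filter, the replicate number as a block, and each library left out in turn. Genes named were all 34 members, the gene of each wider list with the lowest p in each direction if under 0.05 unadjusted, P3h1 and Idh1, and others are said to be chosen later. The members, lists and promoter motifs were chosen with earlier results of these data known. Overlaps came from GENCODE M21 and promoters from RefSeq.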

Additional observations from a re-analysis of the deposited data

How the results depend on the processing

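No member passed an adjusted p under 0.05 under any of the 11 alternatives. At an unadjusted p under 0.05 there were 2 members (all genes 8.64%), and also 2 with limma-voom (all genes 8.49%). It was 3 with upper-quartile factors (Syvn1 in addition, all genes 8.43%) and 3 with DESeq2 (Hyou1 in addition, all genes 7.35%). It was 5 without the low-count filter (Hspa5, Hsp90b1 and Hyou1 in addition, all genes 7.29%). With 1 library left out the count ranged from 0 to 11, and the median log2 difference of the members from 0.075 to 0.16. The calls over all genes, 32 with edgeR, were 194 with DESeq2, 259 without the filter, 19 with limma-voom and 3 to 17 with a library left out. The smallest adjusted p of a member was 0.184 with DESeq2 and 0.0809 without the filter. Trib3 passed with DESeq2 and without the filter.

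Without the filter the log2 difference of Crtap changed sign to -0.00022. With a library left out, 10 genes changed sign at least once, with ranges of -0.11 to 0.088 for Dnajc3, -0.032 to 0.050 for Crtap, -0.049 to 0.41 for Idh1, -0.15 to 0.38 for Sdf2l1, -0.014 to 0.12 for Sel1l, -0.17 to 0.073 for Creb3l1, -0.078 to 0.020 for Herpud1, -0.038 to 0.032 for Mia3, -0.0030 to 0.16 for Serpinh1 and -0.018 to 0.068 for Fkbp14. The cause of these shifts was not tested.

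Deviations of same-numbered libraries from their group means had r of -0.16, -0.0068 and -0.15, and those of the other pairs ran from -0.054 to 0.20. With 3 libraries a group, these values cannot show whether same-numbered samples were littermates. With the replicate number as a block, 2 members were at an unadjusted p under 0.05 (all genes 6.80%), the median was 0.12 and 3 genes were called in all.

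With 3 samples a group, differences of the size seen in Hspa5 did not pass, and leaving out 1 library leaves 2 samples in a group. Isoforms, Xbp1 splicing and protein were not measured.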

Other observations

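Genes outside the 34 that carry the paired ER stress element in their promoter window were looked at after the members. There were 16 such genes among those tested, and 7 had a log2 difference between genotypes above 0. One of them was Derl3, a degradation gene known as an XBP1 target, which was at 0.710, 1.08 and 0.578 CPM in controls and 0.889, 0.528 and 0.688 CPM in mutants, with 13 to 33 counts in a library. Krtcap2, a subunit of the oligosaccharyl transferase, was at 85.1, 103 and 88.2 CPM in controls and 99.9, 102 and 99.8 CPM in mutants. Both genes overlapped between genotypes, and both were chosen after their values were seen.

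Rpn1 and Stt3a encode subunits of the oligosaccharyl transferase, which adds N-glycans to new proteins. Rpn1 was at 298, 272 and 254 CPM in controls and 269, 332 and 328 CPM in mutants, and Stt3a at 249, 212 and 198 CPM in controls and 222, 262 and 264 CPM in mutants. In both, control 1 lay above mutant 1 and below mutants 2 and 3, and neither passed the test (edgeR adjusted p = 0.714 and 0.702). P4hb, the disulfide isomerase that also serves as a subunit of collagen prolyl hydroxylase, had a mean level of 498 CPM per kilobase, rank 56 of the 16813 genes tested. It was at 1410, 1391 and 1289 CPM in controls and 1354, 1543 and 1568 CPM in mutants, a log2 difference of 0.13. Rpn1, Stt3a and P4hb were chosen after their values were seen.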
